A study of Mus musculus with 6 samples.

Results

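Exon skipping was followed through 1321 pairs of transcript forms in the cortex of sham-operated mice and of mice after stroke. Each pair consists of the ON form, in which a cassette exon lies between its 2 neighbouring exons, and the OFF form, in which the neighbours are joined directly. Forms were paired when they belonged to the same locus, flanks and exon, and a pair was kept when both forms were listed in all 6 libraries and their summed FPKM reached 5 in each. FPKM, a fragment count scaled to transcript length and library size, is the authors' expression value, and the FPKM of a form was taken, from the layout of their tables, as the sum over the transcripts that carry it. Of 17388 exon skipping pairs or single forms listed in any library, 1879 had both forms in all 6 libraries, and 558 of these lay below the floor. The 1321 pairs covered 1305 distinct exons in 1067 loci, and 873 genes held 1 pair each. The inclusion share is the ON form's percentage of the summed FPKM of both forms.

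The 6 libraries came from the whole ipsilateral cortex of male C57/BL6J mice aged 6 to 8 weeks. Stroke was induced by photothrombosis, in which Rose Bengal is injected intraperitoneally and cold light over the sensorimotor cortex closes its vessels, and tissue was taken at day 1, 3, 7, 14 or 28. Control mice were sham-operated, without illumination, and sampled at day 7 after the operation. RNA of 3 mice was pooled per group, so every group is 1 library, no difference has a replicate check, and no test between libraries was possible. Markers of neurons and astrocytes were listed at high levels in each library (the neuronal Snap25 between 486 and 706 FPKM and the astrocyte gene Slc1a3 between 124 and 176). Neurod6 and Mobp had no value under their own names.

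In exon skipping the splicing machinery either recognises a cassette exon or joins the exons on each side of it. Brain uses such exons widely, and many neuronal ones are very short and add a few residues to synaptic, adhesion or cytoskeletal proteins when their length is a multiple of 3. RNA-binding proteins of the Rbfox, Nova, Ptbp, Mbnl and SR families bind near these exons and set the balance of the forms, which differs between neurons and glia.

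The exons on which the results turn are shown here as they stand in the mature transcript, from the GENCODE M21 transcripts of GRCm38 (mm10), 5′ to 3′. The cassette exon is in capitals, and 15 bases of each neighbouring exon are in lower case. All are coding exons and a multiple of 3 in length. The first set is the fibronectin exon EIIIA and exons of adhesion, scaffold, trafficking, cytoskeletal and heat shock proteins whose shares at days 3 and 7 lay on 1 side of both sham and day 28.
Fn1 EIIIA, chr1:71603660-71603929, minus strand: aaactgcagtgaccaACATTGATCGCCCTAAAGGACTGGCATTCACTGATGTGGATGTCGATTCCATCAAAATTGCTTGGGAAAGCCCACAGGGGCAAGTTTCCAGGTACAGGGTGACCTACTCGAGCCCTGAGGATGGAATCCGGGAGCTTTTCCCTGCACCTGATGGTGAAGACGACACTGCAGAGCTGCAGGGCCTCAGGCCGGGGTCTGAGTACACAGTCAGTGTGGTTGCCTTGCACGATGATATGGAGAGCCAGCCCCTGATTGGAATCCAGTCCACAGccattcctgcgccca
Clta 54-base exon, chr4:44030215-44030268, plus strand: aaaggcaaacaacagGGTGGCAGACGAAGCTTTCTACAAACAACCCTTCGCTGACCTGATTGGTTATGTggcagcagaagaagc
Clta 36-base exon, chr4:44031400-44031435, plus strand: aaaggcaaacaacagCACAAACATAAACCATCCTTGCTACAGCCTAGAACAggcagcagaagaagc
Ncam1 30-base exon, chr9:49550540-49550569, minus strand: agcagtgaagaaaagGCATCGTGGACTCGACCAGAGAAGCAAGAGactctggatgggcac
Nrcam 30-base exon, chr12:44566840-44566869, plus strand: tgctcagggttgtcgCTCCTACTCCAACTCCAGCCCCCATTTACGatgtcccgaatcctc
Nrcam 36-base exon, chr12:44578145-44578180, plus strand: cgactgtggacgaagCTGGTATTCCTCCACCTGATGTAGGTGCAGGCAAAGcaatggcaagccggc
Dlg1 36-base exon, chr16:31854653-31854688, plus strand: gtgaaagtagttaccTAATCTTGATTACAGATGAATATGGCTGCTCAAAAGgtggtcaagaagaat
Myo6 39-base exon, chr9:80296643-80296681, plus strand: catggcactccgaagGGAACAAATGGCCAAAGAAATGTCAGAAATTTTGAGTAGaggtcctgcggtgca
Myo6 27-base exon, chr9:80303273-80303299, plus strand: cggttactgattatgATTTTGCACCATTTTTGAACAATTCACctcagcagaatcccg
Limk2 18-base exon, chr11:3352900-3352917, minus strand: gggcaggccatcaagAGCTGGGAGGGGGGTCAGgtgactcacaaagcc
Hsph1 132-base exon, chr5:149623465-149623596, minus strand: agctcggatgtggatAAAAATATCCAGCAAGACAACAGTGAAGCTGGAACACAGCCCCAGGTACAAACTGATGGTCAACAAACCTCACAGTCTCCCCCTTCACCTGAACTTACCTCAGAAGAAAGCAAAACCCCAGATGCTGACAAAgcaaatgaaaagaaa

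Both Clta exons stand between the same neighbours, and a transcript can hold either, both or neither. The second set is the short exon of the beta domain in the 3 Mef2 transcription factors among the members, together with the Grin1 exon of the extracellular N1 insert.
Mef2d beta exon, chr3:88161781-88161801, plus strand: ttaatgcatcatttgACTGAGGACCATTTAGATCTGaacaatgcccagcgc
Mef2c beta exon, chr13:83654598-83654621, plus strand: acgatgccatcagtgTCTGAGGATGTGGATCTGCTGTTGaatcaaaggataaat
Mef2a beta exon, chr7:67244521-67244544, minus strand: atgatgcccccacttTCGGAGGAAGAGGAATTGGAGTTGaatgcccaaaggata
Grin1 63-base exon, chr2:25311343-25311405, minus strand: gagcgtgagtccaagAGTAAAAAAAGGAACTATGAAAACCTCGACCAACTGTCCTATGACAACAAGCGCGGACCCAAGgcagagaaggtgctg

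The exons were short and mostly in frame. Their median length was 89 bases, with 85 of 1321 at 27 bases or less. Of the 952 exons that were wholly coding, 686 had a length that is a multiple of 3. The median inclusion share was similar in the libraries, between 55.5% at day 1 and 58.5% at day 14. In 523 pairs the share lay between 10 and 90% in all 6 libraries, in 29 it lay under 1% throughout and in 51 over 99% throughout. In 15 pairs it spanned from under 10 to over 90%.

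Single pairs moved far between libraries. The range of the share over the 6 libraries had a median of 20.5 percentage points. It was under 1 point in 86 pairs, from 1 to 5 in 88, from 5 to 10 in 142, from 10 to 20 in 330, from 20 to 50 in 521 and 50 or more in 154. The range went with expression, with a median of 28.5 points in the 215 pairs with a mean summed FPKM of 5 to 10 and 5.95 points in the 69 pairs over 100. Exons of 27 bases or less had a median range of 27.5 points and exons of 61 to 150 bases one of 18.6. Coding exons with a length that is a multiple of 3 had a median range of 22.8 points and the other coding exons one of 16.2. The range was also larger where the locus held more transcript starts, at 23.9 points with 4 or more against 17.8 with 1. Their part in the changes described here was not tested. Just inside the floor, with a lowest summed FPKM of 5.02, stood a pair of Kif17, and just outside, at 4.99, one of Grwd1.

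**Figure D1:**
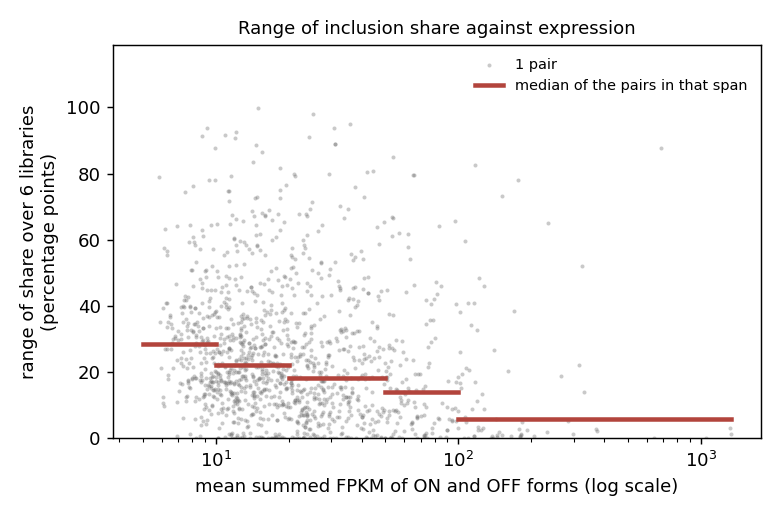
Range of the inclusion share over the 6 libraries in percentage points against the mean summed FPKM of both forms on a log scale. Each of the 1321 grey points is a pair and each red line is the median of the pairs in that span, which falls from 28.5 points at 5 to 10 FPKM to 5.95 points over 100 FPKM.

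Each day was set against the sham library, and a pair was counted as changed when its share differed by at least 10 percentage points. At day 1, 200 pairs had a higher share and 286 a lower one, which is 15.1 and 21.7% of all pairs. At day 3 the counts were 213 higher (16.1%) and 256 lower (19.4%), and at day 7 they were 209 higher (15.8%) and 238 lower (18.0%). At each of these 3 days, more pairs were lower than higher. At day 14, 275 pairs were higher (20.8%) and 273 lower (20.7%). At day 28, 209 were higher (15.8%) and 234 lower (17.7%). These percentages are the background for the counts in each gene group, and the sham library is shared by all 5 comparisons.

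**Figure D2:**
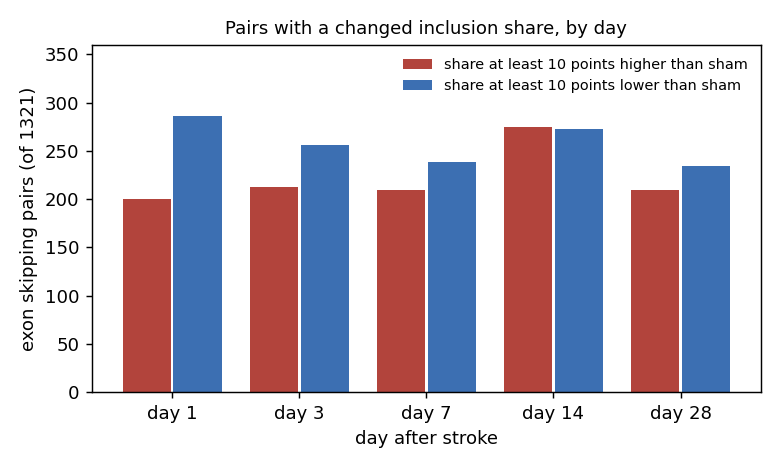
Number of the 1321 pairs whose inclusion share was at least 10 percentage points higher (red) or lower (blue) than in the sham library, by day after stroke. Lower shares outnumber higher ones most at day 1, with 286 against 200, and day 14 has the tallest pair of bars.

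The median size of the difference from sham was 6.04, 6.25, 5.76, 7.39 and 5.67 points at days 1, 3, 7, 14 and 28. Day 28 had the smallest of these values and day 14 the largest. Over all 15 pairings of libraries the median difference lay between 5.55 points, for day 3 and day 7, and 7.73, for day 14 and day 28. The day 14 library stood apart, with the 4 largest of the 15 values, with the highest share in 317 pairs and the lowest in 273. It also listed the fewest exon skipping forms, 15411 against 17994 to 19135 in the others, and its part in these counts was not tested. With day 14 left out of the rule, 1609 pairs passed and the share of pairs changed was 37.7, 37.0, 34.0 and 34.8% at days 1, 3, 7 and 28, against 36.8, 35.5, 33.8 and 33.5% with it.

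**Figure D3:**
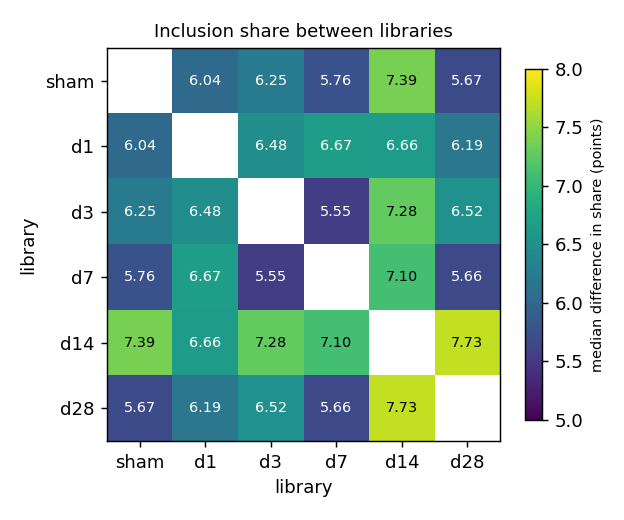
Median absolute difference in inclusion share, in percentage points over 1321 pairs, for every pairing of the 6 libraries (sham and day 1, 3, 7, 14 and 28). The row of day 14 holds the 4 largest values, up to 7.73 points, and day 3 with day 7 the smallest, 5.55.

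The exons furthest from sham at day 1 were in a mixed set of genes. Slc24a2, a potassium-dependent sodium and calcium exchanger, had a share for its 51-base exon of 14.5% in sham and 90.9, 79.2, 79.4, 1.82 and 6.16% at days 1, 3, 7, 14 and 28. The 73-base exon of Rbm39, an SR-like splicing cofactor, stood at 0.81% in sham and 73.9, 41.6, 81.3, 50.7 and 1.77% on those days. The exon was thus nearly absent in sham and day 28 and common in the 4 libraries between. The 62-base exon of Pde2a, a cyclic nucleotide phosphodiesterase, was likewise low in sham and day 28, with 0.561% in sham, 61.8, 40.0, 45.0 and 85.4% from day 1 to day 14 and 0.328% at day 28. The other 2 genes among the 5 largest upward differences at day 1 were Ntan1 and Phf24.

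Among the exons with lower shares, several were high in sham alone or in sham and 1 later library. The 78-base exon of Sbf1, a phosphoinositide phosphatase relative, was near full inclusion in sham and at 0.0147, 50.2, 11.9, 44.9 and 0.109% from day 1 to day 28. The 93-base exon of Zyx, a focal adhesion protein, was at 92.2% in sham and 0.496, 20.3, 4.16, 33.0 and 10.3% later. The largest such swing at high expression was in Aldoa, the glycolytic aldolase, whose 153-base exon at the 5′ end had shares of 84.3% in sham and 0.507, 0.985, 88.0, 0.325 and 1.98% at days 1, 3, 7, 14 and 28. Its summed FPKM stayed between 523 and 839. Sham and day 7 thus formed a high level and the other 4 libraries a low one, with nothing between.

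Day 3 held single-library changes as well. The 93-base exon of Map2, a dendritic microtubule-binding protein, was at 64.5% at day 3 and between 0.197 and 0.734% in the other 5 libraries. The 111-base repeat exon of Cttn, the actin-binding protein cortactin, was at 77.1% at day 3 and between 8.92 and 25.7% elsewhere. Both were high in the day 3 library only. Among the lower shares, the 129-base exon of Ogfod1 was at 9.98% at day 3, and the 77-base exon of Morf4l2 at 8.78%, against 98.7 and 83.7% in sham.

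At day 7 and day 14 other genes stood out, some in 1 library and some in more. The 92-base exon of Brd2, a bromodomain protein, was at 92.6% at day 7 and between 3.63 and 22.5% in the rest. The 186-base exon of Slc24a2 was at 92.0% at day 7 and 98.4% at day 14, against 0.463% in sham and 0.934% at day 28. Its summed FPKM was 6.90 at day 7, near the floor, and between 20.5 and 36.4 in the other libraries. At day 14 the 190-base exon of Map4, a microtubule-associated protein of many tissues, was at 99.9%, against 6.07% in sham and 56.8% at day 1. The 21-base exon of Eif4g3, a translation initiation scaffold, was at 0.0798% at day 14 and between 59.5 and 92.8% elsewhere. At day 28 the largest higher shares were in Pstk, Zfp414, Ntan1, Thrap3 and Thap12, among which the 88-base exon of Thrap3 was at 57.0% at day 28 and at 3.93% or less in the other libraries.

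A second way to read the time course, chosen after the values were seen, was to ask which exons had day 3 and day 7 both on the same side of both sham and day 28 by at least 10 points. Day 3 and day 7 were above in 51 pairs (3.86%) and below in 45 pairs (3.41%). The exons below were shorter, with a median length of 45 bases against 89 in the exons above and 89 in all pairs. Of the 45, 26 were 60 bases or less and 37 had a length that is a multiple of 3. Of the 51 above, 15 were 60 bases or less and 32 had a length that is a multiple of 3. In all pairs, 62.6% had a length that is a multiple of 3. These are counts in lists picked by value, without a test.

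**Figure D4:**
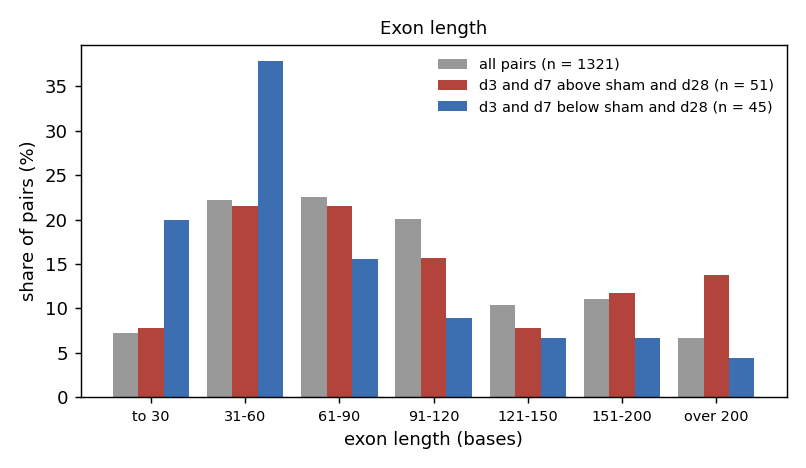
Percentage of pairs in each class of exon length in bases, for all 1321 pairs (grey), the 51 with day 3 and day 7 above sham and day 28 (red) and the 45 below (blue). Exons of 31 to 60 bases make up 37.8% of the lower set against 22.2% of all pairs, and exons of up to 30 bases 9 of 45 pairs against 7.19%.

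Cell type markers were set beside the shares. The summed FPKM of 6 neuronal markers was 1480 in sham and 1380, 1070, 1100, 997 and 1290 at days 1, 3, 7, 14 and 28. At days 3 and 7 Gad2 alone was higher than in sham, at 24.7 FPKM on both days against 22.0. At day 14 Snap25, Syt1, Slc17a7 and Gad2 were lower than in sham. Rbfox3, at 89.9 FPKM in sham and 91.5 at day 14, and Gad1, at 70.3 and 77.3, were not. The 6 astrocyte markers summed to 540 in sham and 1260 at day 3, most of which was Gfap, at 85.8 FPKM in sham and 698 at day 3, while Aldh1l1 was at 24.5 and 25.2. The 5 fibroblast markers summed to 24.9 in sham and 105 at day 7. Microglial and macrophage markers summed to 93.3 in sham and 367 at day 7, while Cx3cr1 and Tmem119 were not listed in most libraries. Most of that difference was C1qa, at 42.5 FPKM in sham and 259 at day 7, while P2ry12 was at 18.0 and 17.7. The sums lay between 1550 and 2180 for 5 oligodendrocyte markers, 7.04 and 16.6 for 4 endothelial ones and 0.909 and 17.6 for 6 leukocyte ones. In RNA from whole tissue, fewer cells of a type and less RNA per cell cannot be told apart, and the part of cell types in the shares below was not tested.

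The exons that were lower at day 3 and day 7 included those of 2 adhesion proteins. Nrcam, a neuronal cell adhesion molecule of the L1 family, had a share for its 30-base exon of 89.6% in sham and 66.7, 56.7, 65.3, 59.8 and 90.1% at days 1, 3, 7, 14 and 28. Its 36-base exon, further along the transcript, went from 88.3% in sham to 69.3, 62.0, 55.6, 67.2 and 84.3%. Both exons were thus high in sham and day 28 and lower in the 4 libraries between. The 30-base exon of Ncam1, known as VASE and placed in an immunoglobulin domain, was at 44.7% in sham and 32.4, 28.8, 25.0, 73.4 and 54.2% at days 1, 3, 7, 14 and 28. The Ncam1 exon was thus above sham at day 14 and day 28.

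Postsynaptic and signalling proteins were in the same set. Dlg1, the scaffold SAP97, had a share for its 36-base exon of 48.2% in sham and 21.4, 20.2, 23.3, 26.9 and 45.7% at days 1, 3, 7, 14 and 28, while its summed FPKM was between 24.2 and 30.6. A shorter form of the exon with the same 3′ end, 21 bases long, had shares of 19.1, 13.6, 8.22, 8.42, 7.49 and 11.8%. The Dlg1 exon therefore separated sham and day 28 from all other libraries by over 18 points, and no library lay between. Nptn, the synaptic immunoglobulin protein neuroplastin, had a share for the 348-base exon of its first immunoglobulin domain of 83.8% in sham, 24.4, 31.3, 45.7 and 13.9% from day 1 to day 14 and 87.1% at day 28. The summed FPKM of that pair was 44.9 at day 7 and between 149 and 220 in the other libraries. The 63-base exon of Srcin1, a Src inhibitor, went from 48.2% in sham to 1.20, 17.1, 8.36, 4.19 and 40.4%. The 33-base exon of Camk2g, a calmodulin-dependent kinase subunit, was at 69.1% in sham and 53.0 and 49.2% at days 3 and 7.

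Of the 84 pairs of membrane traffic and cytoskeletal genes, 5 were below at days 3 and 7 and 1 was above, against 3.41 and 3.86% of all pairs. Clta, the clathrin light chain A, has 2 neuronal exons of 54 and 36 bases. In transcripts without the 36-base exon, the share of the 54-base exon was 36.1% in sham and 31.8, 17.0, 12.6, 22.6 and 42.3% at days 1, 3, 7, 14 and 28. In transcripts without the 54-base exon, the share of the 36-base exon was 26.4% in sham and 9.95, 9.78 and 27.7% at days 3, 7 and 28, while days 1 and 14 lay under 0.001%. Where the other neuronal exon was present, each exon stayed high, the 54-base one at 90.5% or more and the 36-base one between 83.2 and 88.6%. Summed over all its flanks, the 54-base exon was at 74.6, 78.1, 55.9, 53.3, 70.3 and 76.0%, so day 3 and day 7 remained the 2 lowest libraries. Summed in the same way, the 36-base exon was at 70.8, 67.9, 52.1, 51.8, 61.6 and 69.9%, with day 1 near sham. The related 54-base exon of Cltb, the light chain B, was at 80.1, 73.8, 61.5, 74.5, 78.0 and 78.1%.

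Myo6, the myosin that moves towards the minus end of actin, had 2 exons on opposite sides. The share of its 39-base exon was 43.7% in sham and 5.09, 6.89, 2.05, 13.8 and 29.1% at days 1, 3, 7, 14 and 28. The share of its 27-base exon was 51.8% in sham and 95.1, 89.6, 89.3, 81.4 and 58.7% later. For both exons day 28 was the library nearest to sham. The 18-base exon of Limk2, a kinase that controls cofilin, was at 36.4% in sham and 33.0, 20.7, 21.7, 16.0 and 38.1% at days 1, 3, 7, 14 and 28. The 87-base exon of Abi1, of the WAVE actin regulatory complex, was at 33.9% in sham and at 6.06, 7.69, 4.85, 8.42 and 22.8% later. Summed over all its flanks, the Abi1 exon was at 33.9% in sham and 3.28, 4.88, 3.03, 3.62 and 13.3% later. On that measure day 28 was nearer to day 3 than to sham, and the exon fell outside the day 3 and day 7 pattern. The 33-base exon of Mff, the mitochondrial fission factor, was at 27.5, 38.5, 5.85, 5.09, 50.6 and 22.0%, so that day 3 and day 7 stood together below the other libraries. The 39-base exon of its partner Dnm1l, the fission dynamin, was at 54.5, 54.4, 42.3, 44.4, 36.4 and 63.3%.

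Exons of heat shock and ribosomal genes were also among the 45. Hsph1, a heat shock protein of the HSP110 family, had a share for its 132-base exon of 99.1% in sham and 94.7, 37.4, 44.4, 42.8 and 88.9% at days 1, 3, 7, 14 and 28. The form without that exon is the beta form, and it was the major form at days 3, 7 and 14. Rps24, a protein of the small ribosomal subunit, had a share for a 20-base exon annotated as UTR of 62.0, 55.2, 21.1, 23.0, 22.4 and 52.5%. Its summed FPKM was between 67.1 in sham and 163 at day 14. The 66-base exon of Hsf1, the transcription factor of the heat shock response, was at 87.2, 76.0, 59.5, 54.6, 73.7 and 70.1%.

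**Figure D5:**
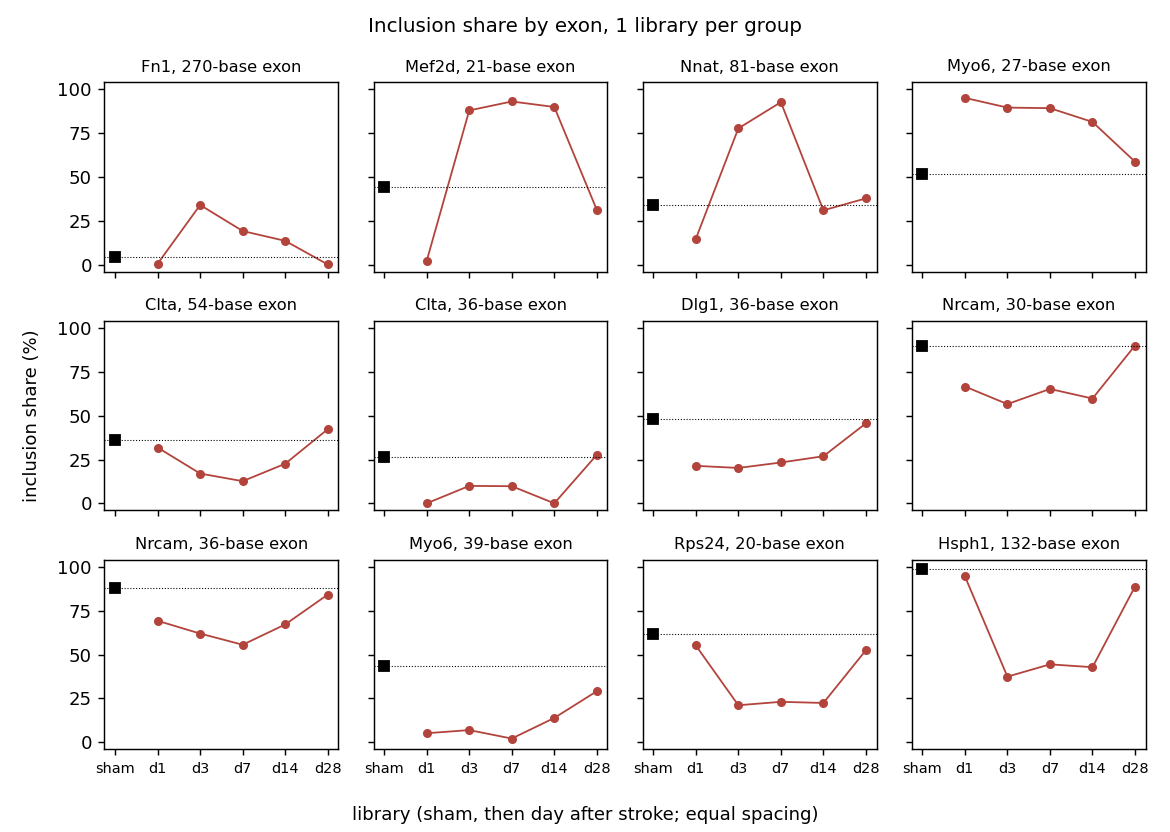
Inclusion share in percent of 12 exons, picked after their values were seen, in the sham library (black square and dotted line) and on the 5 days after stroke (red points, equally spaced, 1 library each, no error bars). Fn1, Mef2d, Nnat and the 27-base Myo6 exon are above sham and day 28 at days 3 and 7, and the other 8 are below.

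The exons that were higher at days 3 and 7 included EIIIA of Fn1, the fibronectin exon that is largely absent from plasma fibronectin and found in the matrix of wounds. Its share was 4.33% in sham and 0.447, 34.0, 19.1, 13.5 and 0.00182% at days 1, 3, 7, 14 and 28. The summed FPKM of both forms was 9.76 in sham and 6.97, 37.7, 28.0, 10.9 and 7.10 at days 1, 3, 7, 14 and 28. Days 3, 7 and 14 were therefore the 3 highest libraries for both the share and the level. The fibroblast marker Col1a1 was at 2.46, 3.07, 15.7, 21.2, 13.9 and 1.79 FPKM in the same libraries, and its part in the result was not tested.

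Transcription factors of the Mef2 family each had their short beta exon among the members, and the 3 profiles were unlike. In Mef2d the share was 44.4% in sham and 2.08, 88.0, 93.1, 89.9 and 31.1% at days 1, 3, 7, 14 and 28. In Mef2c it was 48.2, 17.7, 70.9, 47.8, 93.6 and 53.4%, and in Mef2a it was 89.3, 97.8, 80.4, 80.1, 39.4 and 93.1%. Day 1 was the lowest library for Mef2d and Mef2c, and the highest for Mef2a. Day 14 was the highest for Mef2c and the lowest for Mef2a.

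Other exons above at both days were in genes of several kinds. The 81-base exon of Nnat, the endoplasmic reticulum protein neuronatin, whose beta form lacks it, was at 34.2% in sham and 14.6, 77.7, 92.7, 30.9 and 37.8% at days 1, 3, 7, 14 and 28. The 89-base exon of Camk2d was at 24.5, 0.0247, 64.6, 70.2, 86.4 and 15.1%, whereas its 42-base exon in the variable linker was at 89.9, 44.1, 56.8, 63.1, 86.4 and 86.6%. The 2 Camk2d exons thus lay on opposite sides at days 3 and 7. The 21-base exon of Ptprz1, a receptor phosphatase of glia, was at 74.5, 77.0, 91.5, 88.6, 88.9 and 71.2%. The 105-base exon of H2-T22, a class I major histocompatibility gene with close relatives whose reads it may share, was at 22.5, 39.9, 55.8, 75.9, 57.7 and 32.7%.

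Synaptic proteins, adhesion molecules and channels gave 65 pairs from 37 genes, with a median range of 22.8 points against 20.5 in all pairs. At days 1, 3, 7, 14 and 28, the share was higher in 9, 10, 9, 16 and 9 of these and lower in 16, 19, 17, 19 and 10. At day 3, 19 of 65 lower stands against 19.4% of all pairs. On single days, 15.1 to 20.8% of all pairs were higher and 17.7 to 21.7% lower. In the list, 1 pair had day 3 and day 7 above and 7 had them below, against 3.86 and 3.41% of all pairs. The 63-base exon of Grin1, the obligate NMDA receptor subunit, was at 79.7% in sham and 80.9, 42.7, 80.3, 88.9 and 68.5% at days 1, 3, 7, 14 and 28, so day 3 alone was far below. The 96-base exon of Grm5, a metabotropic glutamate receptor, was at 29.1% at day 14 and between 77.9 and 94.4% elsewhere. The 27-base exon of Shank1, a postsynaptic scaffold, was likewise lowest at day 14, at 33.5%, and highest at day 1, at 88.2%.

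Cytoskeletal and membrane traffic genes gave 84 pairs from 48 genes, with a median range of 25.2 points. Over the 5 days in turn, 15, 12, 16, 18 and 18 of these were higher and 16, 23, 15, 22 and 15 lower. For all pairs the shares were 15.1, 16.1, 15.8, 20.8 and 15.8% higher and 21.7, 19.4, 18.0, 20.7 and 17.7% lower. Besides the exons of Map4, Cttn and Map2, large ranges were found in Macf1, Add1, Clasp1 and Picalm. The 18-base exon of Macf1, a linker of actin and microtubules, was at 73.2, 95.0, 40.4, 23.5, 59.3 and 29.7%. The 37-base exon of Add1, a spectrin-binding adducin, was at 57.4% in sham, 64.6, 42.7 and 71.8% at days 1, 3 and 7, and 6.28% at day 28, with day 14 next above it. Its 2 lowest libraries were thus days 14 and 28, a different order from that of Clta or Myo6.

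RNA-binding proteins and splicing regulators gave 56 pairs from 41 genes, with a median range of 19.9 points. From day 1 to day 28, 11, 7, 8, 14 and 9 of these were higher and 13, 13, 11, 9 and 11 lower. Among all pairs, 15.1, 16.1, 15.8, 20.8 and 15.8% were higher and 21.7, 19.4, 18.0, 20.7 and 17.7% lower. The 33-base exon of Tia1, a stress granule protein, was at 35.8% in sham and 77.9, 85.3, 10.3, 93.9 and 20.7% at days 1, 3, 7, 14 and 28. Its summed FPKM at day 3 was 6.31, near the floor. The 18-base exon of Ewsr1 was at 80.3, 80.0, 16.6, 66.4, 96.5 and 96.4%, with day 3 alone far below. Its summed FPKM was 10.8 at day 3 and between 28.0 and 36.8 elsewhere. The 166-base exon of Hnrnpr was over 92% at days 7 and 14 and at 33.8% or less elsewhere. The 91-base exon of Clk1, a kinase of SR proteins whose form without this exon is truncated, was at 75.8% at day 14 and between 16.5 and 45.7% elsewhere.

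The levels of the regulators themselves, taken as a lower bound on each gene's FPKM, were mostly close to sham. With a threshold of 1 on the log2 scale, 4 of the 85 regulators listed in all 6 libraries were higher at day 1 and 5, 2, 3 and 1 at the later days in turn, and 0, 1, 0, 5 and 0 were lower. The largest rise was in U2af2, at 8.11 FPKM in sham and 42.8 at day 28, and the largest fall in Ptbp3, at 2.96 and 0.514 at day 14. The neuronal regulator Rbfox3 was at 89.9 FPKM in sham and 103, 66.1, 66.8, 91.5 and 77.9 at days 1, 3, 7, 14 and 28, so days 3 and 7 were the lowest. On those 2 days its relatives lay nearer to sham. Rbfox1 was at 46.7 and 42.7 FPKM against 49.0, and Rbfox2 at 26.2 and 25.0 against 26.6. Srrm4, a neuronal activator of very short exons, was at 3.66, 3.68, 3.00, 3.02, 0.671 and 3.80 FPKM, lowest at day 14. Ptbp1, the repressor of neuronal exons in non-neuronal cells, was at 7.94, 14.1, 16.9, 5.48, 15.4 and 4.88 FPKM. Pabpn1, the nuclear poly(A)-binding protein, was at 59.3 in sham and 59.4 at day 28 and between 121 and 127 on the days between. Their part in the shares was not tested.

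Genes of the amyloid precursor family and its partners gave 14 pairs from 7 genes, so a gene can count more than once. The 150-base exon of Picalm is also in the list of cytoskeletal and membrane traffic genes. At day 14, 8 of the 14 pairs were higher and 2 lower, against 20.8 and 20.7% of all pairs. At days 1, 3, 7 and 28, 15.1 to 16.1% of all pairs were higher and 17.7 to 21.7% lower. In this list there were 4 and 3, 4 and 1, 2 and 2, and 5 and 2 on those days. These counts include 1 pair that entered through the authors' symbol Numbl but lies in Coq8b by the annotation, a gene outside the family, whose share of 70.8% in sham was 93.3, 88.2, 75.4, 94.4 and 93.9% on the later days in turn, so it counts as higher at days 1, 3, 14 and 28. Aplp2, the amyloid precursor-like protein, had a share for its 168-base Kunitz inhibitor exon of 74.5% in sham and 42.2, 77.0, 46.0, 28.5 and 40.5% at days 1, 3, 7, 14 and 28. Its 36-base exon was at 37.8, 95.5, 59.5, 37.6, 96.9 and 17.4%. The libraries of days 1 and 14 were thus the highest for the 36-base exon.

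Myelin and oligodendrocyte genes gave 21 pairs from 10 genes, with a median range of 15.1 points against 20.5 in all pairs. No more than 4 of them were higher, and no more than 4 lower, on any day. Of all pairs, 15.1 to 20.8% were higher and 17.7 to 21.7% lower on single days. The 45-base exon of Mag, which sets the small or large form of this myelin-associated glycoprotein, was at 56.5, 31.5, 60.7, 48.5, 65.2 and 76.0%. The 47-base exon of Sirt2, a deacetylase of oligodendrocytes, was at 88.3% at day 7 and between 30.5 and 44.6% elsewhere. In Mbp, the myelin basic protein, the 78-base exon was at 1.48% in sham and between 0.265 and 0.409% later. That pair had the highest mean summed FPKM of all. The 123-base exon of Mbp, measured where the preceding 33-base alternative exon is its neighbour, was between 18.8 and 22.0% in all libraries. In the transcripts that lack that 33-base exon, at a far lower summed FPKM, it was at 96.5% in sham and 96.7, 93.6, 89.0, 97.6 and 76.4% from day 1 to day 28.

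Genes of astrocytes, immune cells, vessels and matrix gave 10 pairs from 10 genes, of which no more than 2 were higher, and no more than 2 lower, on any day. Set beside this, 15.1 to 20.8% of all pairs were higher and 17.7 to 21.7% lower on single days. Besides Fn1, the 132-base exon of Vegfa, the vascular growth factor, which marks its longer, heparin-binding forms, was at 25.6% in sham and 29.7, 52.9, 25.7, 92.8 and 32.2% at days 1, 3, 7, 14 and 28. The 42-base exon of Ndrg2, an astrocyte gene with a mean summed FPKM of 329, was at 22.4, 26.0, 12.1, 16.1, 17.9 and 21.7%. The 63-base exon of Cd47, the do-not-eat-me signal of phagocytosis, was at 26.3, 25.7, 17.8, 29.4, 22.3 and 24.2%. In both, day 3 was the lowest library.

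Of the 5 pairs with the highest mean summed FPKM, those of Mbp, Sparcl1, Mobp and Camk2a had a narrow range and that of Aldoa a wide one. Of all 69 pairs over 100 FPKM, 30 had a range of at least 10 points and 7 of at least 50. The 178-base exon of Sparcl1, a matrix protein of astrocytes, lay between 0.0109 and 0.016% in all libraries. The 79-base exon of Mobp, listed by the authors under Gm38642, lay between 96.2 and 98.5%. The 33-base exon of Camk2a, the calmodulin-dependent kinase of excitatory neurons, lay between 0.147 and 2.95%.

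Retained introns were measured in the same way. The 561 pairs of a retained intron and its spliced form past the same floor had a median difference from sham of 1.72 to 2.48 points over the 5 days, and 17.5 to 22.5% of them changed by at least 10 points. For exon skipping the values were 5.67 to 7.39 points and 33.5 to 41.5%. The median share was 3.65% for retained introns and 56.9% for exon skipping, and near 0 a share can move by few points in 1 direction. The 102 pairs in which several exons are skipped together had median differences of 3.46 to 9.38 points. These differences between event types were not tested, since pairs share loci and libraries.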

How the data were processed

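RNA was pooled from 3 mice per group into 6 poly(A)-selected, strand-specific libraries, read as 150-base paired ends. The study states 33.6 M reads on average; single library depths are unknown, hence no intervals or limits of detection. The submitters' notes name Trimmomatic 0.30, HISAT2 2.0.1, HTSeq 0.6.1 and mm10. The assembler and event caller are not given in the sources used here. The deposited values are the authors' FPKM per splicing event, read from the layout of the tables as the sum over transcripts that carry it, which no source used here states. Events at 0 are left out.

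Repeated lines were dropped, forms were paired by locus, flanks and exon, and inclusion shares were computed in Python 3.11.15 with numpy 2.4.6 and pandas 2.3.3. Of the pairs, 64 share their OFF form with another pair. Exons were annotated with GENCODE M21; for 55 pairs it gave a gene other than the authors'. The exons named are the 5 largest rises and falls per day (1 pair per gene), the 10 largest ranges, the 5 highest FPKM and up to 8 per gene list by range. A few exons under this rule are not reported here. Other exons, and the day 3 and day 7 pattern, were chosen after their values were seen. A gene's FPKM is the largest of its summed starts, summed ends or any event, and its log2 ratio uses a pseudocount of 0.1. Members and lists were chosen with earlier results of these data known. The pairing was tested on simulated data. Alternatives covered the floor, the threshold, the set of pairs and the measure. No p-values could be computed from single libraries.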

Additional observations from a re-analysis of the deposited data

How the results depend on the processing

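No paired analysis was possible because every group is 1 library and no test was run. Of 84 alternative values for 12 results, 57 stayed within 1.5 times the reported one. In the other 27, the number of pairs entering or the threshold moved the count. For days 1, 3, 7, 14 and 28, the changed pairs numbered 282, 274, 251, 321 and 244 of 861 with a floor of 10, 225, 219, 203, 282 and 197 with a threshold of 20 points, and 940, 860, 823, 953 and 819 of 5161 with a missing form taken as 0. With a threshold of 5 points they numbered 733, 717, 715 and 710 at days 1, 3, 7 and 28. With pairs listed in sham and that day alone they numbered 752, 813, 740 and 754. The pairs with day 3 and day 7 above sham and day 28 numbered 28 with a floor of 10 and 22 with a threshold of 20 points, and those below 27 and 21. The missing form as 0, the sums over flanks, leaving day 14 out of the rule and all alternatives for the day 3 and day 7 pattern were added after seeing the data. Percentages changed were 28.3 to 37.3% with a floor of 10 against 33.5 to 41.5% as reported. With a missing form taken as 0 they were lower, at 15.9 to 18.5% of 5161 pairs. Each share rests on 1 pool, so the spread between mice is unknown.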
